A study of Mus musculus with 6 samples.

Results

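The Slc25 genes encode the mitochondrial carriers, a family of transport proteins that mostly sit in the inner mitochondrial membrane. Members were taken as every gene of the deposited count table whose symbol is Slc25a followed by a number, which gave 40 of the 22413 genes in the table. A further 8 symbols of the family's list were not analysed here. The family was chosen by name, not by measured values.

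The libraries came from retinal ganglion cells of adult mice, the output neurons of the retina, which send their axons through the optic nerve. In 3 samples the genotype was Tgfbr1flx/flx;Vglut2Cre/+, in which Cre recombinase is driven from the gene for the vesicular glutamate transporter Vglut2 (Slc17a6), so that recombination follows cells that use or once used this gene. They are referred to here as knockouts. The remaining 3 samples were Tgfbr1flx/flx;Vglut2+/+, with the same floxed Tgfbr1 (a gene for a TGF-beta receptor) but no Cre, and are the controls. No treatment or exact age is given in the sources used here, nor whether a sample was 1 animal or pooled animals. The p-values below therefore rest on a spread between samples that may be technical. Wherever 3 values are listed for a genotype, they stand in the order of replicates 1, 2 and 3.

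Mitochondrial carriers move the substrates of metabolism across a membrane that is otherwise closed to them. Adenine nucleotide carriers exchange ATP made in the matrix for ADP from the cytosol, and the phosphate carrier brings in the phosphate for the same reaction. Others move citrate, malate, amino acids, carnitine esters, cofactors, glutathione or iron. Ganglion cells have a high demand for ATP along their unmyelinated axon segments in the retina, and several inherited optic neuropathies are diseases of mitochondria, among them one caused by variants of SLC25A46.

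Library totals ran from 7486359 to 21126291 gene counts. A count of 0 allows up to 3 counts, which is 0.142 to 0.401 CPM (the usual depth-scaled count, taken over each column's sum) depending on the library, and this covers counting error only. The targeted Tgfbr1 was counted 1, 0 and 1538 times among controls and 46, 0 and 793 times among knockouts, and whole-gene counts do not separate the floxed part. Ganglion cell markers were present in every library, with 5 to 9 of 12 reaching 10 counts and summed levels of 2792 to 4777 CPM in 5 libraries against 610.7 CPM in control 3. Slc17a6 was at 0 counts in control 3, and Pou4f2 had at most 1 count in any library. Control 3 also held 5596 CPM summed over 8 endothelial markers, where the other libraries held 35.93 to 581.4 CPM. Markers of Müller glia, 6 in all, summed to 511.6, 778.7 and 731.8 CPM among controls and 126.5, 227.7 and 508.8 CPM among knockouts. The lowest control was thus just above the highest knockout. The part of these cells in the carrier levels was not tested. Results that rest on control 3 are given with and without it.

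Of the 40 carriers, 3 were present at 10 counts or more in all 6 libraries: the phosphate carrier Slc25a3 and the adenine nucleotide carriers Slc25a4 and Slc25a5. Their promoters are printed because they belong to the carriers that every library held. Each line gives the 250 bases before the RefSeq start site, from GRCm38.p6, 5′ to 3′ on the gene's strand. The window of Slc25a3 is chr10:91123968-91124217 on the minus strand, that of Slc25a4 is chr8:46211063-46211312 on the minus strand, and that of Slc25a5 is chrX:36795347-36795596 on the plus strand. GENCODE M21 starts Slc25a3 at 91124059 and Slc25a4 at 46211284, upstream of the RefSeq starts and inside these windows. Part of the Slc25a3 window and most of the Slc25a4 window thus lie within the gene as GENCODE draws it. For Slc25a5 the GENCODE start is 36795651, downstream of the RefSeq start. Capitals mark matches to TGCGCA (a core of the site of the mitochondrial biogenesis factor NRF1, the same on either strand), TGACG (the core of the cyclic AMP response element) and CCGGAAG (a site of ETS factors), searched on both strands.
Slc25a3: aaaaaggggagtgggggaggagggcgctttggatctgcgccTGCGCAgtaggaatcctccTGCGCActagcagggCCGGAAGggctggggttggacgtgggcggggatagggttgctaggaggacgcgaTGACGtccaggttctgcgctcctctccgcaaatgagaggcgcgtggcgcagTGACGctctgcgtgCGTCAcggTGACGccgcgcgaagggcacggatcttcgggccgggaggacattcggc
Slc25a4: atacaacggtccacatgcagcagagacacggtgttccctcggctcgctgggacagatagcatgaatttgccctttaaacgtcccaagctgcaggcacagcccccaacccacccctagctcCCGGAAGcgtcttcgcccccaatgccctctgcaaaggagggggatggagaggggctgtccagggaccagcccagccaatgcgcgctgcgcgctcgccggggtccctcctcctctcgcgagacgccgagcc
Slc25a5: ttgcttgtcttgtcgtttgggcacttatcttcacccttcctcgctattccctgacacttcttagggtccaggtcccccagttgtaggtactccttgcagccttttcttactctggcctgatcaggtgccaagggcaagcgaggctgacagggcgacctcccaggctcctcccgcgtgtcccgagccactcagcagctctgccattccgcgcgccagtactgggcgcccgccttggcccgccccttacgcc

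The 3 promoters differed in the motifs they held. Slc25a3 had the NRF1 core at bases -209 and -190, the ETS site at -175 and the cyclic AMP core at -121, -70, -56 and -48, where a position is that of the leftmost base and the last base before the start is -1. Slc25a4 had the ETS site at -130 and no match to the other 2 motifs. Slc25a5 had no match to these motifs in the window. A search for TATAA found it at base 6 after the RefSeq start in Slc25a4 and at base 27 after it in Slc25a5, outside the printed bases, and not in Slc25a3. The match in Slc25a5 lies upstream of the GENCODE start of that gene. Over windows of 300 bases (250 before and 50 after the start), TATAA was in 24.9% of all 32851 windows and in 11.9% of the 42 windows of the family. TGACG was in 20.8% of all and 28.6% of the family's, CCGGAAG in 8.86% and 16.7%, and TGCGCA in 7.76% and 7.14%, the latter being Slc25a3, Slc25a21 and Slc25a36. The median GC content was 59.8% in the family's windows and 52.7% in all windows. The RefSeq table held 32 of the 40 members, 7 of them with several starts and so several windows. Among the members it did not hold were Slc25a27, Slc25a32, Slc25a35, Slc25a41, Slc25a44, Slc25a46 and Slc25a51. A match is a run of letters and not a measured binding site.

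Slc25a3, Slc25a4 and Slc25a5 made up 37.0% to 78.6% of all carrier counts in a library. Slc25a3 (mm10 chromosome 10, 91116574 to 91124059) was counted 2174, 7945 and 6223 times among controls and 13118, 11393 and 3871 times among knockouts. These were 187.3, 1061 and 380.1 CPM for the controls and 941.3, 539.3 and 478.0 CPM for the knockouts. The lowest and the highest library were both controls, so the knockouts lay inside the control range. The knockout mean was 652.8 ± 251.7 CPM (SD, n = 3) and the control mean 542.9 ± 459.2 CPM, for a log2 fold change of 0.54 ± 0.78 (SE; knockout against control) with an adjusted p of 0.9998 in edgeR's quasi-likelihood test. The value was 0.21 with DESeq2's size factors, 0.26 with column totals, 0.03 without knockout 1 and 1.26 without control 2.

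Slc25a4 (chromosome 8, 46206797 to 46211284) encodes the adenine nucleotide carrier typical of heart, muscle and brain. Its levels were 676.3, 1046 and 337.2 CPM among controls and 996.7, 425.3 and 461.7 CPM among knockouts. Control 2 and knockout 1 were high and the groups overlapped throughout. The knockout mean was 627.9 ± 319.9 CPM and the control mean 686.5 ± 354.5 CPM, with a log2 fold change of 0.07 ± 0.72 that was negative with other scalings (-0.21 with DESeq2's size factors and -0.13 with column totals). The fold change was -0.28 without control 3 and -0.59 without knockout 1. It stayed positive in the other 4 fits with 1 library left out.

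Slc25a5 (chromosome X, 36795651 to 36798807) encodes the adenine nucleotide carrier found in most tissues and in dividing cells. Its levels were 80.0, 474.6 and 445.0 CPM among controls and 302.4, 704.8 and 332.5 CPM among knockouts. Control 1 was lowest and knockout 2 highest, with 4 libraries between. The log2 fold change was 0.60 ± 1.05, within the spread between libraries, and it came to 0.15 when either control 1 or knockout 2 was left out and to 0.26 under DESeq2's scaling. GENCODE M21 lists a processed pseudogene of this gene on chromosome 14, so its counts may include or lose reads shared with that copy.

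Per length, in the deposited FPKM, Slc25a4 ranged from 253.2 to 785.3, Slc25a3 from 109.0 to 617.7 and Slc25a5 from 61.8 to 544.3. The order of Slc25a4 and Slc25a5 changed between libraries of the same genotype. Slc25a4 took 89.2%, 68.2% and 42.4% of the pair's FPKM among controls and 76.2%, 37.0% and 57.4% among knockouts. The ratio of Slc25a4 to Slc25a5 was thus 8.22 in control 1, 2.14 in control 2 and 0.737 in control 3, while the knockouts gave 3.204, 0.587 and 1.35. Control 3, the endothelial-rich library, and knockout 2 were the libraries in which Slc25a5 exceeded Slc25a4. Endothelial markers summed to 5596 CPM in control 3 and 293.5 CPM in knockout 2, and amacrine markers to 283.7 and 666.5 CPM. The part of other cell types in this order was not tested. Slc25a3 was below Slc25a4 per length in every library, at 0.215 of its FPKM in control 1 and 0.732 to 0.983 in the others.

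**Figure D1:**
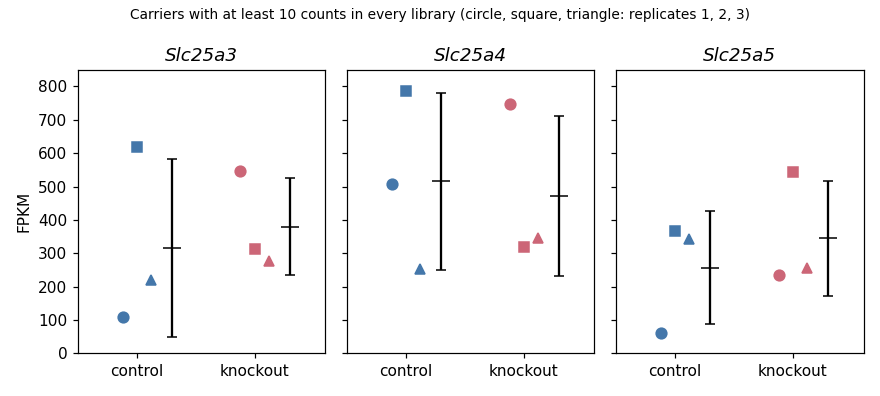
FPKM of Slc25a3, Slc25a4 and Slc25a5 (vertical axis) in the control and knockout libraries, with circles, squares and triangles for replicates 1, 2 and 3 and the mean ± SD of each group in black. For each gene the groups overlap, and Slc25a3 and Slc25a5 are lowest in control 1, at 109.0 and 61.8 FPKM.

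Summed over the family, the genotypes differed by less than the spread between libraries. The 40 carriers held 2552, 3344 and 1785 CPM among controls and 2851, 2915 and 2010 CPM among knockouts. The knockout mean was 2592 ± 505.0 CPM (n = 3) and the control mean 2560 ± 779.5 CPM, a ratio of 1.01, and every knockout lay within the control range. The ratio was 0.879 without control 3. The members behind the sum differed between libraries. In control 1 the largest carrier by counts was Slc25a24, at 793.6 CPM (31.1% of the family's counts), followed by Slc25a4 and by Slc25a33 at 582.7 CPM (22.8%). In the other 5 libraries the top 3 places were held by Slc25a3, Slc25a4 and Slc25a5 in varying order. Without these 3, the rest of the family summed to 1609, 761.8 and 622.9 CPM among controls and to 610.4, 1246 and 738.2 CPM among knockouts.

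**Figure D2:**
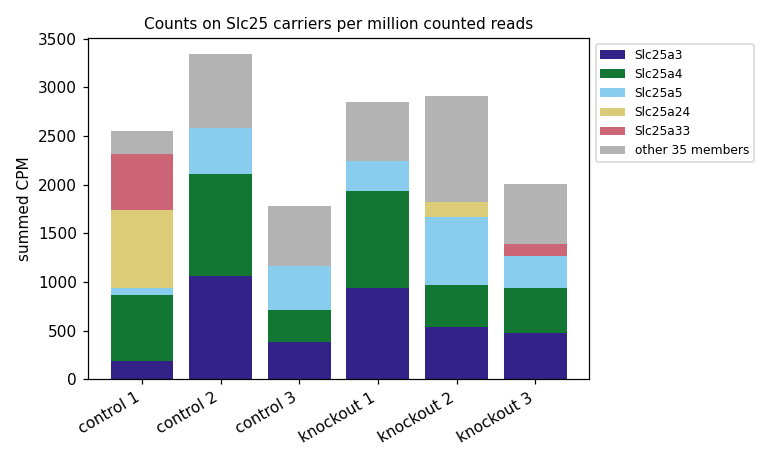
CPM summed over the 40 Slc25 carriers (vertical axis) in each of the 6 libraries, with Slc25a3, Slc25a4, Slc25a5, Slc25a24 and Slc25a33 as separate segments and the other 35 members in grey. Totals run from 1785 CPM in control 3 to 3344 CPM in control 2, and control 1 differs in its large Slc25a24 and Slc25a33 segments.

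Knockout libraries detected more carriers than controls, as they did of all genes. At 10 counts or more, 12, 10 and 10 carriers were detected among controls and 17, 21 and 13 among knockouts. The means were 17.0 ± 4.0 and 10.67 ± 1.155 (n = 3), a ratio of 1.59, beside a ratio of 1.45 for all genes in the table. With all libraries thinned to 7486359 counts the carriers detected numbered 12, 10 and 10 among controls and 16, 20 and 13 among knockouts, and without control 3 the ratio was 1.55. Of the 40 members 7 reached 10 counts in no library, 9 in 1 library, 13 in 2, 3 in 3, 4 in 4, 1 in 5 and 3 in all 6. Of the 33 detected in some library, 12 (36.4%) were detected in knockouts only, where 31.8% of all 11977 detected genes were, and 2 (6.06%) in controls only, against 12.2% of all. These shares were near those of the whole table, and 0 carriers were at 10 counts or more throughout 1 genotype and in no library of the other, where 2.29% of all detected genes were so in the knockouts and 0.134% in the controls. A single library held at least 90% of the summed CPM for 11 of the 33 (33.3%) and for 35.2% of all detected genes. In bulk samples, fewer cells with a transcript and less of it per cell cannot be told apart.

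**Figure D3:**
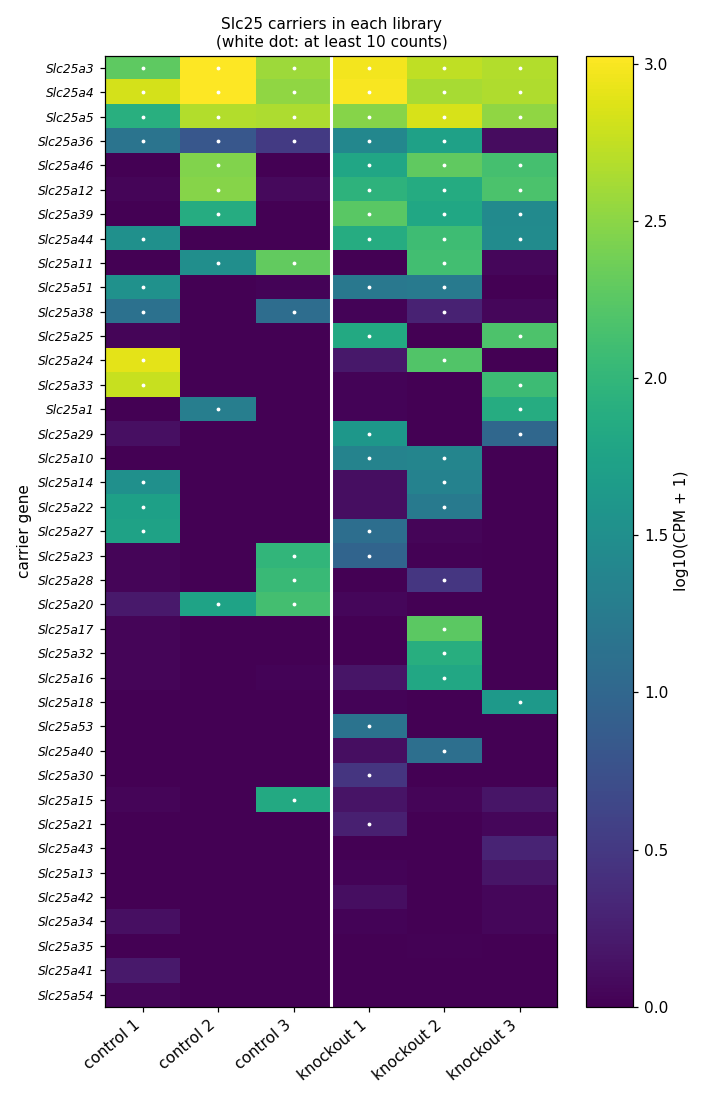
Level of 39 of the 40 Slc25 carriers (rows) in the 6 libraries (columns, controls left of the white line) as log10(CPM + 1), ordered by the number of libraries with at least 10 counts, which white dots mark. Only the top 3 rows are filled in every library, 7 rows at the bottom have no dot, and the middle rows are filled in different libraries of the same genotype.

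The count test included 11 of the 40 carriers, those that passed edgeR's filter on low counts, and 0 of them passed an adjusted p of 0.05, as for all 5727 genes tested (0% called). At an unadjusted p under 0.05 there were 0 of the 11, beside 4.91% of all genes tested, and the smallest unadjusted p of a carrier was 0.148. DESeq2 called 4 of the 40 carriers, beside 3.95% of all genes in the table, and limma voom 0 of the 11, beside 1.54% of the genes it tested. In edgeR 8 log2 fold changes were positive and 3 negative, where 54.2% of all genes tested were positive, and the median was 0.54 beside 0.14 for all genes. With DESeq2's size factors these medians were 0.214 and -0.134. The family's median was below that of the same genes in 3 of 15 alternatives, which were limma voom (0.933 and 1.58), the replicate block (0.635 and 1.10) and the fit without control 1 (0.205 and 0.382), and above it in 12. It reached 1.26 beside 0.238 without control 2, and it was 0.366 beside 0.346 without control 3. No tested carrier had all knockouts above or below all controls, which held for 10.4% of all tested genes in the upward direction and 2.3% downward. Standard errors ran from 0.72 to 3.44, so differences of several-fold could not be told from 0 for most of these genes.

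**Figure D4:**
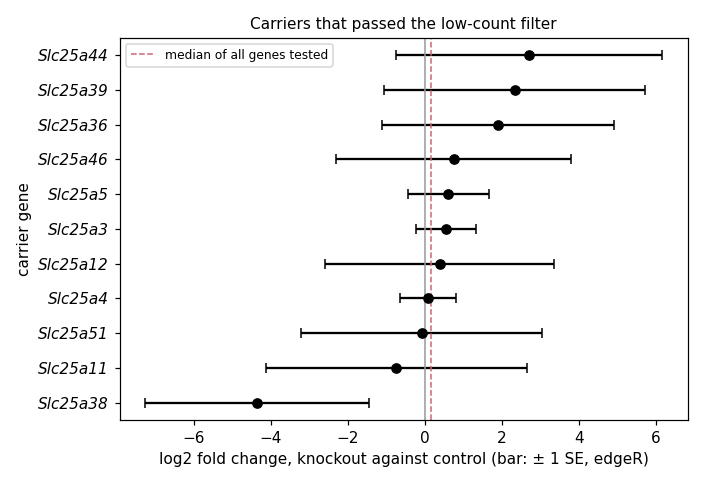
Log2 fold change of knockout against control (horizontal axis, points with bars of 1 SE from edgeR) for the 11 Slc25 carriers that passed the low-count filter, with the dashed line at the median of all genes tested, 0.14. The bars of Slc25a3, Slc25a4 and Slc25a5 are the shortest, the other 8 span 5 or more log2 units, and Slc25a38 alone has a bar that does not reach 0.

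Among the other tested carriers, 4 were present in every knockout and in 1 control each. Slc25a12 (chromosome 2, 71271063 to 71367749) encodes aralar, the aspartate-glutamate carrier of neurons and muscle and a step of the malate-aspartate shuttle. It was counted 1241, 1514 and 1199 times among knockouts and 1, 2205 and 3 times among controls. The knockouts averaged 102.9 ± 40.04 CPM, and control 2 was above them all at 294.5 CPM while the other 2 controls were near 0. Its log2 fold change was 0.37 ± 2.96, and it was -0.16 without control 1, -0.19 without control 3 and 9.47 without control 2, a fit against controls that then hold 4 counts. Slc25a13 (citrin), the liver counterpart of aralar, had 4 counts at most.

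Slc25a46 (chromosome 18, 31556111 to 31609911) encodes a carrier-like protein of the outer membrane that acts in mitochondrial fission and lipid transfer. It was counted 853, 4064 and 1094 times among knockouts and 0, 2126 and 0 times among controls. As for Slc25a12, control 2 was the highest of all at 284.0 CPM and the other controls held none, against 129.6 ± 65.8 CPM in the knockouts (log2 fold change 0.74 ± 3.06). Slc25a39, which brings glutathione into mitochondria, was counted 2499, 1334 and 217 times among knockouts and 0, 545 and 0 times among controls (log2 fold change 2.33 ± 3.38). Control 2 at 72.8 CPM lay above knockouts 2 and 3. Slc25a44, the carrier of branched-chain amino acids, was counted 1023, 2573 and 223 times among knockouts and 374, 0 and 0 times among controls, so here control 1 was the control that held it (log2 fold change 2.70 ± 3.44). Knockout 3 had the lowest level of Slc25a39 and Slc25a44 among the knockouts. Each of these 3 values rests on 1 control: without control 2 the fitted value was 13.80 for Slc25a46 and 13.42 for Slc25a39, and without control 1 it was 13.04 for Slc25a44, against controls that then hold 0 counts, so these give no size of effect. DESeq2 called none of these genes or Slc25a12 over all libraries. Without control 2 it called Slc25a12, Slc25a39 and Slc25a46 (adjusted p = 0.00312, 0.00156 and 0.000756), beside 22.3% of all genes with an adjusted p. Without control 1 it called Slc25a44 (0.0025), beside 21.8%. The library left out was in each case the control with nearly all control counts of the gene. These calls follow from that choice and give no separate support for a difference.

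Slc25a36, a carrier of pyrimidine nucleotides, was low but present in 5 libraries. It was counted 158, 42 and 37 times among controls and 336, 1112 and 2 times among knockouts (log2 fold change 1.89 ± 3.02). Knockout 3 was lowest and knockouts 1 and 2 highest. Slc25a51, which carries NAD into mitochondria, was counted 378, 0 and 1 times among controls and 212, 347 and 0 times among knockouts. Its log2 fold change was -0.08 ± 3.13, and its sign turned with 5 of 9 other settings.

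Besides Slc25a51, the tested carriers with negative values were Slc25a38 and Slc25a11. Slc25a38, a glycine carrier needed for haem synthesis, was counted 145, 0 and 180 times among controls and 1, 20 and 1 times among knockouts. Its level was at most 12.5 CPM in any library, and the log2 fold change of -4.36 ± 2.90 (adjusted p = 0.9998, edgeR) was the furthest from 0 of the 11. Control 2 at 0 lay below every knockout. Slc25a11, the oxoglutarate-malate carrier and the other carrier step of the malate-aspartate shuttle, was counted 0, 225 and 3241 times among controls and 0, 2673 and 1 times among knockouts (log2 fold change -0.75 ± 3.39). Its value was 1.78 without control 3, which held 198.0 CPM. Slc25a11 overlaps Rnf167 on the other strand in exons, and where strand was not used in counting, reads of the pair cannot be told apart.

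Of the 29 carriers that did not pass the filter, 4 were called by DESeq2, 3 of which are described here. DESeq2 gave an adjusted p for 15 of the 40 carriers, so that 4 of 15 were called where 15% of all genes with an adjusted p were. All had 10 counts or more in 2 libraries of 1 genotype. Slc25a25, a calcium-regulated carrier of ATP-magnesium and phosphate, was counted 954, 0 and 1211 times among knockouts and 1, 0 and 0 times among controls. The ratio of depth-scaled group totals was 1780 (95% exact binomial interval 319 to 70300, counting error only), and the adjusted p in DESeq2 was 0.0122. Slc25a10, the dicarboxylate carrier, was counted 297, 476 and 0 times among knockouts and was at 0 throughout the controls, at least 212-fold higher against a floor of 3 counts over the group (DESeq2 adjusted p = 0.0340). Both had a knockout library at 0 counts, and 12.6% of the genes with an adjusted p were called as higher in the knockout.

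Slc25a20, the carnitine-acylcarnitine carrier of fatty acid oxidation, was the carrier called as lower, where 2.39% of the genes with an adjusted p were. It was counted 7, 422 and 2177 times among controls and 2, 0 and 0 times among knockouts. Every control lay above every knockout, but control 1 at 7 counts (0.603 CPM) and knockout 1 at 2 counts (0.144 CPM) were both under 10 counts. The ratio of depth-scaled group totals was 1590 in favour of the control (95% exact binomial interval 439 to 13100, counting error only). This interval leaves out the spread between libraries. The DESeq2 adjusted p was 0.00796. It was 0.0320 without control 3, the endothelial-rich library that held most of its counts. That fit called 23.5% of all genes with an adjusted p. Its controls held 7 and 422 counts of Slc25a20, so the value without control 3 rests on control 2. Groups that did not overlap, with all controls higher, were found for 1 of the 40 carriers, Slc25a20, beside 0.799% of all genes in the table. With all knockouts higher they were found for 1 of the 40 carriers, beside 4.8% of all genes. The exons of Slc25a10 and Slc25a25 overlap genes of the other strand in GENCODE M21 (Gm11788 and Naif1), as do those of 10 of the 40 members in all. Slc25a18 (with Atp6v1e1) and Slc25a46 (with B930094E09Rik) are also among the 10. Where strand was not used in counting, reads of such pairs cannot be told apart.

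Most of the remaining carriers appeared in 1 or 2 libraries, and libraries of the same genotype held different ones. Knockout 2 alone held Slc25a17, a carrier of the peroxisomal membrane, at 3890 counts, with 1 count elsewhere. It also alone held Slc25a32, linked to folate and FAD transport, at 1626 counts, Slc25a16 at 1346 counts and the glutathione carrier Slc25a40 at 251 counts. Knockout 1 alone held Slc25a53 (185 counts), Slc25a30 of the uncoupling protein branch (27 counts) and Slc25a21, the oxodicarboxylate carrier (12 counts). Knockout 3 alone held Slc25a18, a glutamate carrier, at 341 counts. Of these 8 genes, all had 2 counts or fewer over the 3 controls.

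Control 3 alone held Slc25a15, the ornithine carrier of the urea cycle, at 1109 counts, where the other libraries had 0 to 6. Control 3 also held 98.2% of the summed CPM of Slc25a28 (mitoferrin 2, an iron carrier), with 1845 counts against 42 in knockout 2, and 92.0% of that of Slc25a23, an ATP-magnesium and phosphate carrier, with 1605 counts against 117 in knockout 1. Without control 3 these 3 genes had at most 1 count each in the controls. Their levels stood beside the 5596 CPM of endothelial markers in that library, and the part of endothelial cells in them was not tested.

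A set of 5 further carriers reached 10 counts in control 1 and in 1 knockout each. Slc25a24, another carrier of ATP-magnesium and phosphate, had 9213 counts in control 1 and 3340 in knockout 2, with 8 in knockout 1 and 0 in the others. Slc25a33, a pyrimidine nucleotide carrier, had 6765 counts in control 1 and 966 in knockout 3, with 1 in knockout 1 and 0 in the others. Slc25a22, a glutamate carrier of neurons and glia, had 602 counts in control 1 and 339 in knockout 2. Slc25a14, of the uncoupling protein branch and known from brain, had 376 counts in control 1 and 449 in knockout 2. Slc25a27, its relative in brain, had 633 counts in control 1 and 160 in knockout 1. For each of these 5 genes controls 2 and 3 held 0 counts, so the control value rests on control 1 alone. Slc25a1, the citrate carrier, had 138 counts in control 2 and 598 in knockout 3. Slc25a29, a carrier of basic amino acids, had 542 and 76 counts in knockouts 1 and 3 and 4 in control 1.

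Among carriers with a related substrate, the one that was present changed between libraries. Of the ATP-magnesium and phosphate carriers, Slc25a24 made up nearly all FPKM in control 1 and knockout 2, Slc25a23 in control 3 and Slc25a25 in knockout 3, and in knockout 1 Slc25a25 took 74.3% and Slc25a23 23.9%. Control 2 held 0 counts of all 3. Of the glutamate carriers, control 1 and knockout 2 had Slc25a22 at 15.1 and 4.68 FPKM, and knockout 3 had Slc25a18 at 8.75 FPKM. Of the pyrimidine nucleotide carriers, Slc25a33 was at 254 FPKM in control 1 and 52.1 FPKM in knockout 3, and Slc25a36 made up 99.0% or more of the pair in the other 4 libraries, at 0.304 to 7.09 FPKM. Slc25a39 exceeded Slc25a40 in every library that held either. Slc25a37 and Slc25a2, the partners of Slc25a28 and Slc25a15 in the same scheme, were not analysed here.

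The 7 carriers under 10 counts in every library were Slc25a13, Slc25a34, Slc25a35, Slc25a41, Slc25a42, Slc25a43 and Slc25a54. Their highest count was 8, for Slc25a43 in knockout 3. Slc25a43, Slc25a41 and Slc25a54 each lie beside another carrier on the same strand of the same chromosome. Slc25a43 is 18448 bases from Slc25a5 on chromosome X, yet one reached 10 counts in no library and the other in all 6. Slc25a41 is 2056 bases from Slc25a23 on chromosome 17, and Slc25a54 is 6461 bases from Slc25a24 on chromosome 3.

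By substrate class, the adenine nucleotide and phosphate carriers held most of the counts, from 1260 to 2582 CPM in a library, with 3 to 5 of 7 members detected. Amino acid carriers summed to 78.9 to 294.5 CPM, with 1 to 4 of 8 detected. Carriers of di- and tricarboxylates and carnitine were nearly absent from control 1, at 0.603 CPM, and reached 330.9 CPM in control 3. Carriers of cofactors, nucleotides, glutathione and iron ranged from 78.4 CPM in control 2 to 629.2 CPM in control 1, and knockout 2 detected 9 of 11 where the other libraries detected 2 or 3. In each class the range over the controls overlapped that over the knockouts.

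Other genes of mitochondrial transport were taken from a list of membrane channels and carriers and of malate-aspartate shuttle enzymes. Of the 24 genes measured, 4 (Ucp2, Ucp3, Mtch1 and Mtch2) belong to the carrier family under other symbols, and 2 of these were tested, with 0 passing. Of the 20 genes of other families, 16 were tested, 0 passed, and 7 log2 fold changes were positive and 9 negative, with a median of -0.28. Mdh2, the mitochondrial malate dehydrogenase, averaged 405.7 ± 274.4 CPM among knockouts and 861.5 ± 271.2 CPM among controls (log2 fold change -0.99 ± 0.74). Vdac3, a channel of the outer membrane, was at 330.4 ± 91.3 against 685.2 ± 401.8 CPM (-1.01 ± 0.83), and its relative Vdac1 at 195.9 ± 95.01 against 85.1 ± 70.3 CPM (1.42 ± 2.39). Mpc2 of the mitochondrial pyruvate carrier was at 469.0 ± 192.8 against 305.2 ± 206.2 CPM (0.67 ± 1.02). Sfxn5, a sideroflexin, rested on 3139 counts in control 1 (-1.91 ± 3.47), and Got1, the cytosolic aminotransferase of the shuttle, was at 321.0 ± 180.7 against 183.1 ± 159.9 CPM (0.84 ± 1.70). Of the 20, 9 were detected in all 6 libraries and 1 in none, where 3 and 7 of the 40 carriers were. Over all genes in the table these shares were 5.34% and 46.6%.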

How the data were processed

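Gene tables of 6 bulk RNA sequencing libraries were used, 3 per genotype. RNA came from a RNeasy Micro kit and 1 ng of it entered VAHTS Universal V6 libraries, per the labels' protocols. The submitters' processing notes name fastp, HISAT2, HTSeq, DESeq2, R 3.2.0 and mm10 with no role for each. Strand setting and annotation: not given in the sources used here. The authors deposited raw counts, which were the main measure, and FPKM. The deposited FPKM follow from the counts by dividing by column sums and by a length per gene, whose relative spread over the 6 columns was at most 6.5e-07. CPM were computed from column totals.

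Genotypes were compared over all tested genes with edgeR 4.0.16 in R 4.3.3 (filterByExpr, TMM scaling, quasi-likelihood F test with robust fitting, adjustment by Benjamini-Hochberg, threshold 0.05), and an SE is the absolute log2 fold change divided by the square root of F. DESeq2 1.42.0, limma 3.58.1 (voom, and log2(FPKM + 1) or log2(FPKM + 0.1), with or without a mean FPKM minimum of 1), other scalings, no filter, a replicate block and leaving out each library were alternatives. Genes without an adjusted p in DESeq2 (16513) were left as missing. The scripts for these fits were tried on simulated counts far less variable than these libraries, whose biological coefficient of variation was 2.04 in edgeR. Members, classes, pairs and lists were chosen with earlier results of these data known. Members that passed the filter are named with counts and fold changes, and others by counts; 1 member enters the counts and sums only and is not reported here. Genes of other families are the 6 of their list with the smallest p. Sequences are from RefSeq GRCm38.p6 and gene coordinates from GENCODE M21, which names all 40 members.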

Additional observations from a re-analysis of the deposited data

How the results depend on the processing

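Of 163 values of the 11 tested carriers under other settings, 145 kept their sign and 18 did not. Slc25a4 (0.07) was -0.21 with DESeq2's size factors in edgeR, -0.13 with column totals alone, -0.22 with DESeq2, and -0.10 with limma on log2(FPKM + 1), log2(FPKM + 0.1) and log2(FPKM + 1) without a filter. Slc25a51 (-0.08) was 2.13 with limma voom, 0.42 with limma on log2(FPKM + 1) with or without the filter, 1.31 on log2(FPKM + 0.1) and 0.39 with the replicate block. With 1 library left out, edgeR values ran from -0.59 to 0.35 for Slc25a4, -10.10 to 1.78 for Slc25a11, -0.19 to 9.47 for Slc25a12 and -0.74 to 8.11 for Slc25a51, with a change of sign, and from 0.03 to 1.26 for Slc25a3, 0.15 to 0.93 for Slc25a5, 1.02 to 3.0 for Slc25a36, 1.16 to 13.42 for Slc25a39, 2.04 to 13.04 for Slc25a44, 0.17 to 13.80 for Slc25a46 and -6.20 to -3.82 for Slc25a38, with none. Values above 8 or at -10.10 come from fits in which a genotype is left with few or 0 counts and give no size of effect. The cause of the turns was not tested. Genes called over the whole table were 0 in edgeR, 88 with limma voom, 885 with DESeq2 and 2 with limma on log2(FPKM + 1) or log2(FPKM + 0.1) over genes past the FPKM minimum, and 0 to 7 in edgeR with 1 library left out.

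Carriers called were 0 in each setting except DESeq2, which called 4. Leaving out each library in DESeq2 was added after seeing the data: the genes called numbered 1958, 1941 and 2000 when control 1, 2 or 3 was omitted, and 1453, 1529 and 1460 when knockout 1, 2 or 3 was. The carriers among them were 8, 9, 6, 6, 4 and 7 in the same order. These were 28.6% to 41.2% of the carriers with an adjusted p, beside 19.1% to 23.5% of all genes with one, with Slc25a20 and Slc25a25 in all 6 fits and Slc25a10 in 4. The fits share the libraries in which the genes were first called, and Slc25a18, with 10 counts or more in knockout 3 alone, was called in 5 of them. With the replicate block in edgeR Slc25a12, Slc25a39, Slc25a44 and Slc25a46 were at 8.06, 10.21, 9.92 and 10.69 (unadjusted p = 0.31, 0.229, 0.213 and 0.198). Without it they were at 0.37, 2.33, 2.70 and 0.74. In limma voom they were at 5.46, 7.01, 7.51 and 7.22, with unadjusted p of 0.0949, 0.0339, 0.0202 and 0.0339 and adjusted p of 0.541, 0.344, 0.26 and 0.344. Each gene reached 10 counts in 1 control only, so these values give no size of effect either. The ratio of detected carriers ran from 1.41 to 1.78 with 1 library left out and from 1.53 to 1.65 with other count minimums or thinning, and the ratio of the summed level from 0.879 to 1.20 and from 0.867 to 1.07.

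The deviations of samples with the same replicate number had correlations across genes of -0.024, 0.026 and -0.011. Those of control and knockout samples with different numbers ran from -0.047 to 0.056. With libraries this variable, values near 0 cannot exclude that the numbers pair samples. With the replicate block 0 genes were called in edgeR and 0 carriers. Depth limits the carriers that were not detected to at most 0.142 to 0.401 CPM per library at a count of 0.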
